A study of Mus musculus with 6 samples.

Results

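The collagen genes described here are the 42 protein-coding genes on mouse chromosomes 1 to 19 whose RefSeq symbol is Col, a number, the letter a and a second number. They were taken by name alone from 20665 autosomal protein-coding genes, and no count or fold entered that rule. The set itself was chosen with earlier results of these data known. The data come from ChIRP-seq (chromatin isolation by RNA purification), in which biotin-labelled DNA probes against an RNA pull down the DNA that the RNA is bound to. The RNA was LncMyoD, a long noncoding RNA that is switched on as muscle cells differentiate. The cells were primary myoblasts of the C57BL/6 strain that had been kept for 2 days in DMEM with 2% horse serum and are labelled as differentiated myotubes. No genotype change or treatment is given in the labels, and all samples share the strain and this culture. Probes were split into an odd and an even pool, and these 2 captures and an input with no target were each prepared in 2 replicates, which gives 6 samples in 3 groups. One peak list was deposited per replicate, with 157214 peaks for replicate 1 (list 1) and 179630 for replicate 2 (list 2). The sources used here do not say how the odd, even and input libraries entered each list, so a list is the authors' pooled result without a replicate error, and read depth is unknown. Whether the replicates were separate cultures is not stated either. The peaks are DNA positions and carry no expression values, so the label of myotubes could not be checked with marker genes.

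Collagens are secreted proteins whose alpha chains wind around each other into a stiff helix. Fibrillar collagens form the tension-bearing fibres of the interstitial matrix, network-forming type IV collagen is the scaffold of basement membranes such as the sheet around each muscle fibre, and the other types coat fibres, form beaded filaments, anchor sheets or span the cell membrane. In muscle, types I, III and V make up much of the fibrous connective tissue, and type VI lies next to the basement membrane of the fibres, where its mutations cause congenital muscle disease.

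A shared region is the union of overlapping peaks with at least 1 peak of each list, under a minimum overlap of 1 bp. There were 97493 shared regions, of which 91707 lay on autosomes. A region was assigned to a gene if it overlapped the span of the gene or lay within 5 kb of it. For strength, the fold enrichment of the best peak in each list is given, as the authors deposited it. The place of a region is its order among all autosomal shared regions by q value, taken as a percentile of −log10 q for the best peak in each list and averaged over the lists, with place 1 the strongest. Coordinates are those of mm10, counted from 1.

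At 4 of the 33 collagen genes whose start was at hand, bases just upstream of the transcription start lay in peaks of both lists. Their sequences are shown because only there, among these 33 genes, did both lists cover the same upstream bases. Each is the run of 250 bases before the start, from RefSeq (GRCm38.p6, the assembly of mm10), written 5′ to 3′ on the strand of the gene, with capitals for bases covered by peaks of both lists. The Col6a1 window is chr10:76726045-76726294 on the minus strand. The other windows are on the plus strand, at chr9:108953336-108953585 for Col7a1, chr2:27886175-27886424 for Col5a1 and chr4:130047590-130047839 for Col16a1.
Col6a1: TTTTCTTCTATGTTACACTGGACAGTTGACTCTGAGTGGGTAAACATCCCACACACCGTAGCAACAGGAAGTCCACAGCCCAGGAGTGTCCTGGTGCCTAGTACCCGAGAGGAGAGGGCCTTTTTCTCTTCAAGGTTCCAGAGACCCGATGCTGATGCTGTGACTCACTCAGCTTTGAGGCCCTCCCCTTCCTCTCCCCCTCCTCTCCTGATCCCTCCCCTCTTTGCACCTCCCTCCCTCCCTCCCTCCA
Col7a1: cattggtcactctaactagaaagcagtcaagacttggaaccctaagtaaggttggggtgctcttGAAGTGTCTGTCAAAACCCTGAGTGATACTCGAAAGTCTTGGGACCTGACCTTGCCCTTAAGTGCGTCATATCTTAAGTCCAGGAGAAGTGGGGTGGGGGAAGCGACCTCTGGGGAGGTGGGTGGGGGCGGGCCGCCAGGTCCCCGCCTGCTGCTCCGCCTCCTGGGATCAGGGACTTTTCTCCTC
Col5a1: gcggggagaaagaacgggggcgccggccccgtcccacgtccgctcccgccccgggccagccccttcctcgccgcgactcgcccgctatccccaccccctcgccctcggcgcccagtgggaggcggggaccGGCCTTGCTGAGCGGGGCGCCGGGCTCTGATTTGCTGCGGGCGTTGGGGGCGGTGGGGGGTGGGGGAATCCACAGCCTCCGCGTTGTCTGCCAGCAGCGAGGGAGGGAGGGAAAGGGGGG
Col16a1: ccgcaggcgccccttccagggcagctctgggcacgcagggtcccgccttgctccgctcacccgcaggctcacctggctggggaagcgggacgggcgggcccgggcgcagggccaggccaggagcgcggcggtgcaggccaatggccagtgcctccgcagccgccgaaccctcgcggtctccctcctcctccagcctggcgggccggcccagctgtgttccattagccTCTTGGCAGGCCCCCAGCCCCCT

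Peaks of both lists covered all 250 upstream bases of Col6a1, which encodes the alpha1 chain of beaded-filament type VI collagen. They covered 186 bases at Col7a1, the anchoring fibril collagen, and 120 bases at Col5a1, a chain of the fibre-initiating type V collagen. At Col16a1, a fibril-associated collagen, list 2 covered the whole window but list 1 only the 23 bases next to the start. At Col27a1, a fibrillar collagen of cartilage, 2 different shared regions touched the window, and no upstream base was in peaks of both lists.

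Promoter windows with a strand were at hand for 33 of the 42 members, each running from 250 bases before to 50 bases after a start. The 9 members without one were Col1a1, Col2a1, Col4a3, Col5a2, Col9a3, Col12a1, Col14a1, Col22a1 and Col26a1. Of these, Col2a1 had a shared region over the upper end of its span, chr15:98004144-98005314, with 7.29-fold and 5.87-fold. Whether that end is its start was not read here. A shared region overlapped the window of 5 of the 33 genes (15.2%), namely Col5a1, Col6a1, Col7a1, Col16a1 and Col27a1. Over the 16457 autosomal protein-coding genes with a window the share was 11.1%, so the collagen genes lay close to the background. List 1 peaks reached the windows of 7 collagen genes, the same 5 and Col11a1 and Col6a2, which is 21.2% against 11.5% of all genes. List 2 peaks reached 5 (15.2%), against 14.2%. The E-box CANNTG, the letters that MyoD and related factors recognise, was searched in the 250 upstream bases. It reads the same on both strands in this form. It was found at 18 of the 33 genes (54.5%), against 66.1% of all genes with a window. The version CAGCTG, which is part of the E-box matches, was found at 6 (18.2%), against 13.9%. Of the sequences shown, Col16a1 held 2 E-boxes and Col6a1 held 1, whereas Col5a1 and Col7a1 held none. The median GC content was 59.4% over the 36 windows of collagen genes and 56.0% over all windows.

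Collagen genes are long, with a median span of 110 kb against 17.5 kb for all autosomal protein-coding genes, and 38 of the 42 were longer than that median gene. Since longer genes hold more regions, the counts are read beside genes of like length. A list 1 peak lay within 5 kb of 41 collagen genes (80.6% of all genes had one), and a list 2 peak within 5 kb of all 42 (84.3% of all genes). A shared region lay within 5 kb of 41 of the 42, where 72.2% of all genes had one and genes of the same length class would give 38.2 of 42. The gene without a shared region was Col10a1, the network-forming collagen of hypertrophic cartilage. At 7.11 kb it was the shortest member, and it had 2 list 2 peaks of 3.53-fold and 3.55-fold and no list 1 peak. Its nearest shared region lay 8251 bp away.

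In all, 220 shared regions were counted at the 42 genes, with a median of 4 per gene and a range of 0 to 18. These were 219 distinct regions, since 1 was counted for both Col4a3 and Col4a4. Of the distinct regions 199 overlapped a collagen gene and 20 lay only in the flanks. Of these flank regions, 3 overlapped another protein-coding gene: Uqcrc1 beside Col7a1, Arfgap1 beside Col20a1 and Slc19a1 beside Col18a1.

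The number of regions was close to that of genes of like length. Genes of the same length class, with all autosomal genes cut into 20 classes of equal size, would give 239.2 regions, a ratio of 0.920 (0.956 for the peaks of list 1 and 0.965 for those of list 2). The longest class reached from 188 kb upwards with a mean of 408 kb, whereas the 8 collagen genes in it averaged 282 kb, so the class mean is taken over longer genes than these. Against the other genes nearest in length to each member (a fixed number, 0.973% of all autosomal protein-coding genes), the expected number was 212.2 and the ratio 1.04 (1.09 in each list). By this closer match 23 members had more regions than the mean of their neighbours in length and 19 had fewer. No test was made of these ratios, since genes are not replicates and each replicate is 1 pooled list. The expected values that follow are from these length neighbours, with the ratio by length class beside them where a class is described.

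**Figure D1:**
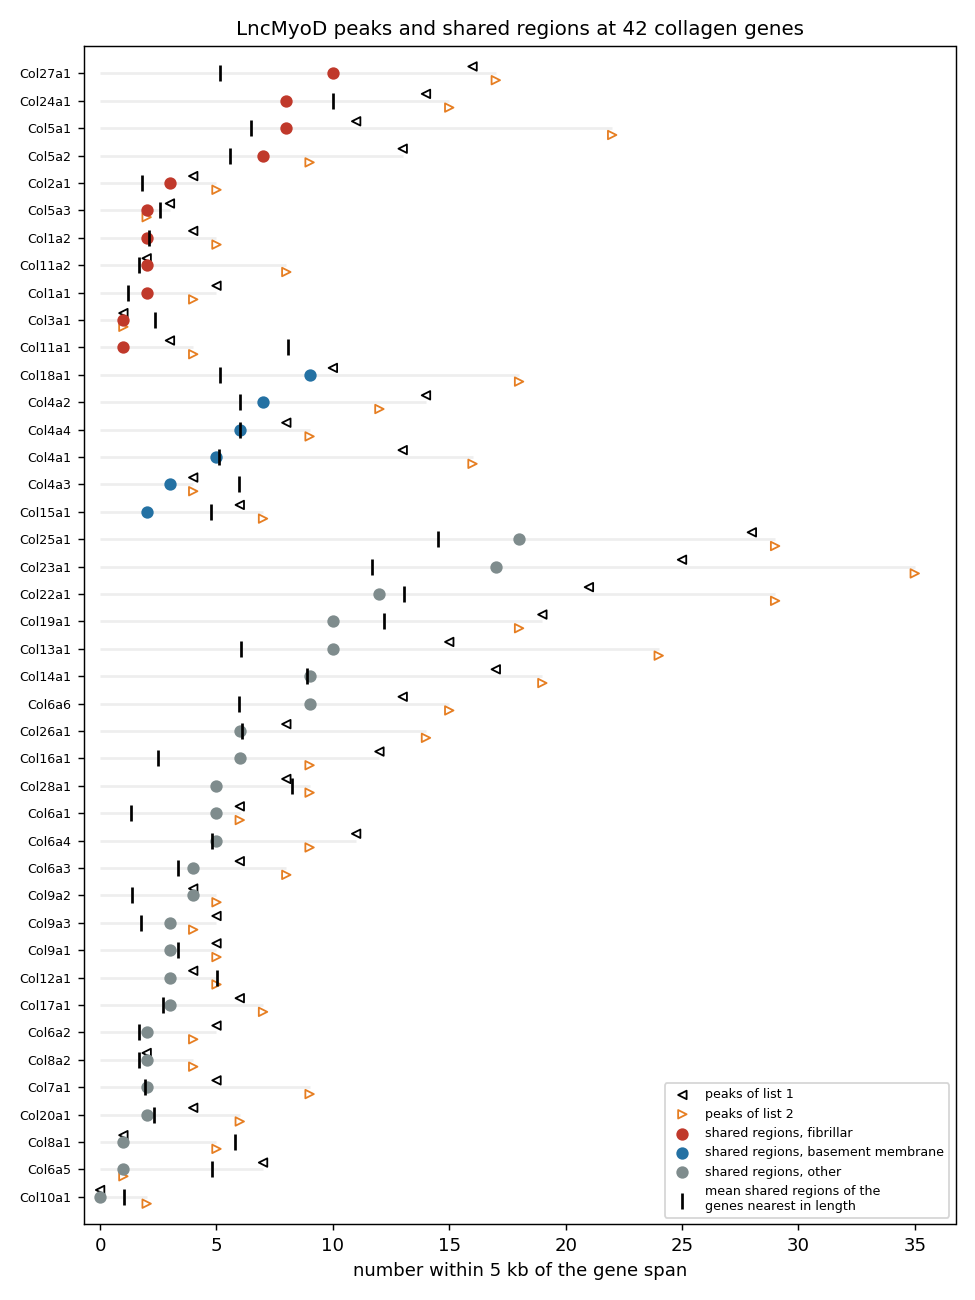
Number of list 1 peaks (black triangles), list 2 peaks (orange triangles) and shared regions (filled circles, coloured by class) within 5 kb of each of the 42 collagen genes, with the mean number of shared regions of the genes nearest in length as a black bar. Col25a1 and Col23a1 hold the most shared regions (18 and 17), Col10a1 none, and Col11a1, Col8a1 and Col6a5 sit far left of their bars.

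The plot of counts by gene shows how the members differed around that near-average total. Both lists gave similar counts, with a Pearson r of 0.904 and a Spearman rho of 0.865 across the 42 genes. These points share gene length. Each count was then divided by the mean count of the length neighbours, with 1 added to both. The r of the log ratios was 0.691. List 2, the longer list, held more peaks at Col5a1 (22 against 11), Col18a1 (18 against 10), Col13a1 (24 against 15) and Col23a1 (35 against 25), while list 1 held more at Col5a2 (13 against 9) and Col6a5 (7 against 1). These genes are examples, named because their counts differed between the lists, and others differed too. List 2 also held more at Col11a2 (8 against 2), Col8a1 (5 against 1) and Col26a1 (14 against 8). List 1 also held more at Col16a1 (12 against 9). Length and the number of shared regions had a rho of 0.665 among collagen genes and 0.624 among all genes.

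The 11 fibrillar genes held 46 shared regions, where 47.0 were expected, a ratio of 0.978 by nearest length and 0.795 by length class. Per list the ratio by nearest length was 1.01 for list 1 and 1.03 for list 2. Of these genes Col11a1, a cartilage-type chain of 190 kb, and Col24a1, of 260 kb, fall in the longest class. Col11a1, which held a single region, was left out in a setting added after its count was seen, so the ratio had to rise. It was then 1.16 by nearest length and 1.02 by length class. The planned setting without Col24a1 and Col27a1 gave 0.737 by length class. All 11 genes had a shared region. The counts were 10 for Col27a1, 8 each for Col5a1 and Col24a1, 7 for Col5a2, 3 for Col2a1, 2 each for Col1a1, Col1a2, Col5a3 and Col11a2, and 1 each for Col3a1 and Col11a1. Of these, 6 lay above their expected number and 5 below.

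The strongest region at any collagen gene was at Col5a1, at chr2:28026399-28028378, with 90.7-fold enrichment in list 1 and 52.5-fold in list 2, place 424. It lay 92.1% of the way along the gene, far from the start. The region at the Col5a1 start, chr2:27886176-27887432, reached 36.0-fold and 23.2-fold (place 14141), and is the one that covers part of the promoter sequence shown. Col5a2, which encodes the partner chain of type V collagen, had its best region at chr1:45408384-45409134 with 53.6-fold and 54.1-fold, place 2707. At Col27a1 the best region, chr4:63275911-63278105, reached 32.6-fold and 53.1-fold (place 6361) near the middle of the gene. Col24a1, another long fibrillar gene, followed with 21.3-fold and 40.8-fold at chr3:145457003-145458381 (place 14270). Of all shared regions at fibrillar genes, only these of Col5a1, Col5a2 and Col27a1 were among the strongest 10% on the autosomes.

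The chains of types I and III, the main fibrous collagens of connective tissue, were less strongly marked. Col1a1 had a region of 33.8-fold and 22.5-fold at chr11:94941612-94942968 (place 15198) and one of 6.24-fold and 5.25-fold at chr11:94947404-94948020. Col1a2 had 2 weak regions, of 6.98-fold and 9.27-fold within the gene (chr6:4520117-4521102) and of 6.24-fold and 7.41-fold 1216 bp upstream (chr6:4503669-4504402). The single region of Col3a1, chr1:45329380-45330446, had 16.5-fold and 16.4-fold near the middle of the gene, where both lists held their only peak. Col3a1 had 1 region against 2.34 expected, Col1a1 2 against 1.21 and Col1a2 2 against 2.104.

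Col11a1 stood lowest among the fibrillar genes for its length. It held 1 shared region, of 7.35-fold and 8.96-fold at chr3:114043412-114043742, against 8.09 expected, and 3.48% of its length neighbours had 1 or none. Its peaks were also few in each list, with 3 in list 1 and 4 in list 2.

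The 6 basement membrane genes held 32 regions against 33.1 expected, a ratio of 0.968 by nearest length and 0.928 by length class (1.05 and 1.06 for the single lists by nearest length). Type IV collagen alone gave 0.907 and the multiplexins Col15a1 and Col18a1, whose ends release antiangiogenic fragments, gave 1.11. The counts were 9 for Col18a1, 7 for Col4a2, 6 for Col4a4, 5 for Col4a1, 3 for Col4a3 and 2 for Col15a1. Col18a1 exceeded its expected 5.15, with 13.4% of its length neighbours holding 9 or more, and Col15a1 was below its 4.78, with 22.4% holding 2 or fewer.

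Type IV genes lie in head-to-head pairs that share a promoter region. Col4a1 and Col4a2, which encode the chains found in nearly all basement membranes, had 5 and 7 shared regions. The best of Col4a1 by place was at chr8:11298082-11298617 with 33.5-fold and 25.1-fold (place 9600), and its next was at chr8:11301542-11302692 with 39.7-fold and 24.8-fold. Both lay inside Col4a1, between 10 and 15 kb from the start the pair shares, and outside the 5 kb around Col4a2. The best region of Col4a2, chr8:11389320-11390404, reached 12.5-fold and 26.3-fold (place 29226). In the pair of Col4a3 and Col4a4, whose products enter the specialised basement membrane of the kidney filter, the region at chr1:82584138-82585324 with 13.97-fold and 14.2-fold lay in Col4a4 near its start and 1597 bp from Col4a3, and was the best of Col4a3. The best region of Col4a4 was at chr1:82552664-82553127, with 16.2-fold and 18.5-fold (place 29595). Col18a1 had its best region at chr10:77111312-77113112 with 28.2-fold and 29.7-fold (place 10878). None of the 31 distinct regions at basement membrane genes was among the strongest 10% of the autosomes.

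**Figure D2:**
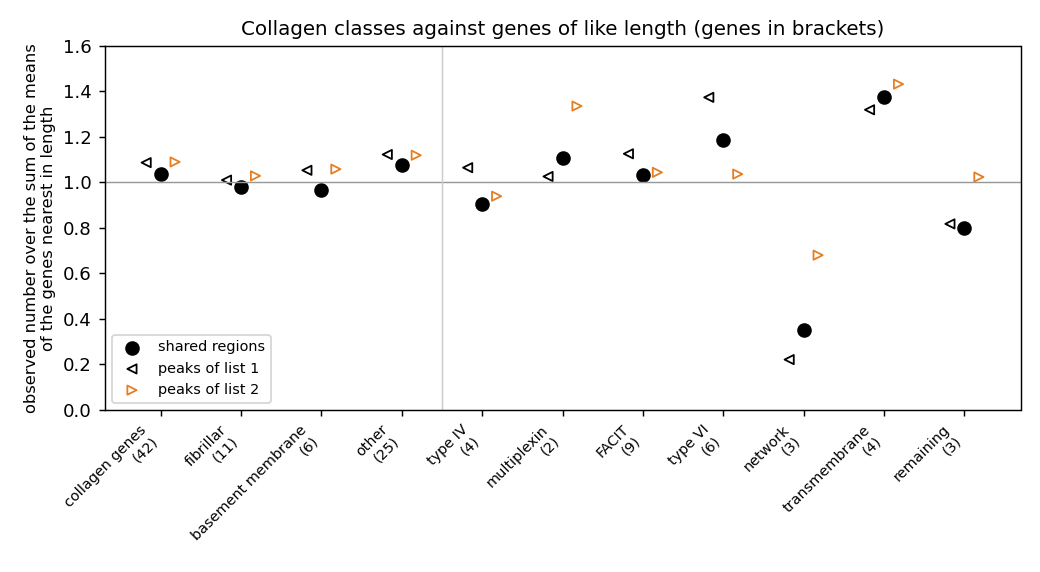
Observed number divided by the summed means of the genes nearest in length, for shared regions (filled circles), list 1 peaks (black triangles) and list 2 peaks (orange triangles), in all 42 collagen genes, the 3 classes and their subclasses, with the number of genes in brackets and a line at 1. The 3 classes sit between 0.968 and 1.08 for shared regions, while the small subclasses spread from 0.352 (network) to 1.37 (transmembrane).

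The 25 other genes held 142 regions against 132.1 expected, a ratio of 1.08 by nearest length and 0.967 by length class (1.12 for either list by nearest length). By nearest length, as the plot of ratios by class shows, the 3 classes differed little. Their shared-region ratios by this match ran from 0.968 to 1.08, and each single list gave at least 1.01 in all 3. By length class the ratios ran from 0.795 (fibrillar) to 0.967 (other). With only peaks of 10-fold or more, they were 0.500 for fibrillar (13 regions), 1.03 for basement membrane and 0.939 for other genes by length class. The subclasses differed more, but they hold 2 to 9 genes each. By length class their ratios were 0.868 (type IV), 1.07 (multiplexin), 0.886 (FACIT), 1.24 (type VI), 0.339 (network), 1.32 (transmembrane) and 0.593 (remaining).

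The transmembrane collagens, which are anchored in the cell membrane and shed their ectodomains, had the highest ratio. Their 4 genes held 48 regions against 34.9 expected (1.37; 1.32 in list 1 and 1.43 in list 2), and all 4 were above their own expected number. Col25a1, a collagen needed for motor innervation of muscle and the longest member at 420 kb, had 18 regions against 14.5. Col23a1 had 17 against 11.7, Col13a1, a collagen of the neuromuscular junction, 10 against 6.03, and Col17a1, the hemidesmosome collagen, 3 against 2.72. The best region of Col25a1 was at chr3:130481371-130481950 with 42.1-fold and 54.7-fold (place 3087), and that of Col23a1 at chr11:51437607-51438778 with 26.4-fold and 30.9-fold (place 13509).

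Type VI collagen had 26 regions at its 6 genes against 21.9 expected (1.18; 1.37 in list 1 and 1.04 in list 2), and the single genes pulled both ways. Col6a1, at 17.3 kb, had 5 regions against 1.31 expected, and only 1 of its length neighbours (0.498%) had 5 or more. This was the highest density of any member, 18.3 regions per 100 kb of span and flank. Both lists held 6 peaks there. Its best region, chr10:76715997-76717421, reached 40.1-fold and 28.2-fold (place 8471) near the middle of the gene, while the region over the promoter shown above, chr10:76725747-76726460, was weak with 7.40-fold and 8.26-fold (place 60268). Its neighbour Col6a2 had 2 weak regions, the better one of 9.11-fold and 5.67-fold at chr10:76605111-76605429, against 1.68 expected. Col6a3, the chain that with Col6a1 and Col6a2 makes up the common form of type VI, had 4 regions against 3.36. These included chr1:90769938-90771725 with 62.4-fold and 37.9-fold (place 3934), near the end of the gene.

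The alternative chains of type VI lie side by side on chromosome 9. Col6a6 had 9 regions against 5.99, the best at chr9:105753349-105755081 with 59.5-fold and 46.9-fold (place 2970), and Col6a4 had 5 against 4.80. Col6a5 had 1 region against 4.81, and 8.96% of its length neighbours had 1 or none. That region, chr9:105926355-105928154, was among the strongest of all members, with 51.8-fold in list 1 and 78.1-fold in list 2 (place 1786). At Col6a5 the lists differed, with 7 peaks in list 1, of which 3 joined this region, and 1 in list 2. Type VI genes held 6 of the 15 collagen regions among the strongest 10% of the autosomes. That is 23.1% of their 26 regions, against 10.4% of the regions within 5 kb of any protein-coding gene. The small group of Col7a1, Col26a1 and Col28a1 had the same share, with 3 of 13. The median type VI region had 11.03-fold in list 1 and 9.96-fold in list 2. Over all autosomal shared regions the medians were 10.8 and 12.05.

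The FACIT collagens, which sit on the surface of fibrils, were near average by nearest length. Their 9 genes held 52 regions against 50.4 expected, a ratio of 1.03 (1.13 in list 1 and 1.04 in list 2). By length class the ratio was 0.886. Counts were 12 for Col22a1, 10 for Col19a1, 9 for Col14a1, 6 for Col16a1, 4 for Col9a2, 3 each for Col9a1, Col9a3 and Col12a1, and 2 for Col20a1. Col16a1 exceeded its expected 2.49, with 6.97% of its length neighbours holding as many or more, and Col9a2 its 1.36, with 2.99%. Col9a2, a cartilage chain, had the next highest density of the members, 15.5 regions per 100 kb. The strongest FACIT region, chr1:24592450-24593780 with 75.7-fold and 35.6-fold (place 2668), lay 4528 bp upstream of Col19a1. The best region of Col22a1, a collagen of muscle-tendon junctions, was at chr15:72056380-72057202 with 21.1-fold and 43.9-fold (place 10887). At Col16a1 the best was chr4:130083649-130085276 with 32.0-fold and 26.9-fold, and the region at its start, chr4:130047585-130049378, had 25.7-fold and 29.0-fold (place 14805).

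The network-forming types VIII and X had the lowest ratio, with 3 regions at 3 genes against 8.53 expected (0.352; 0.221 in list 1 and 0.680 in list 2). Most of the gap was at Col8a1, a vascular and corneal collagen, with 1 region against 5.81, where 6.97% of its length neighbours had 1 or none. That region, chr16:57723738-57725368, reached 45.2-fold and 24.7-fold (place 11155). Col8a2 had 2 regions and Col10a1 none.

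Among the remaining 3 genes, Col26a1 had 6 regions, Col28a1 5 and Col7a1 2, together 13 against 16.2 expected (0.801). Both regions of Col7a1 were strong. One, chr9:108952412-108955258, lay over its start with 42.6-fold and 55.6-fold (place 3982). The other, chr9:108946876-108951043 with 52.5-fold and 60.5-fold (place 2313), lay 2543 bp upstream and overlapped Uqcrc1, a gene of the respiratory chain, so its assignment to Col7a1 rests on distance alone. The best region of Col26a1 was at chr5:136783364-136785146, with 42.8-fold and 35.2-fold (place 6554).

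**Figure D3:**
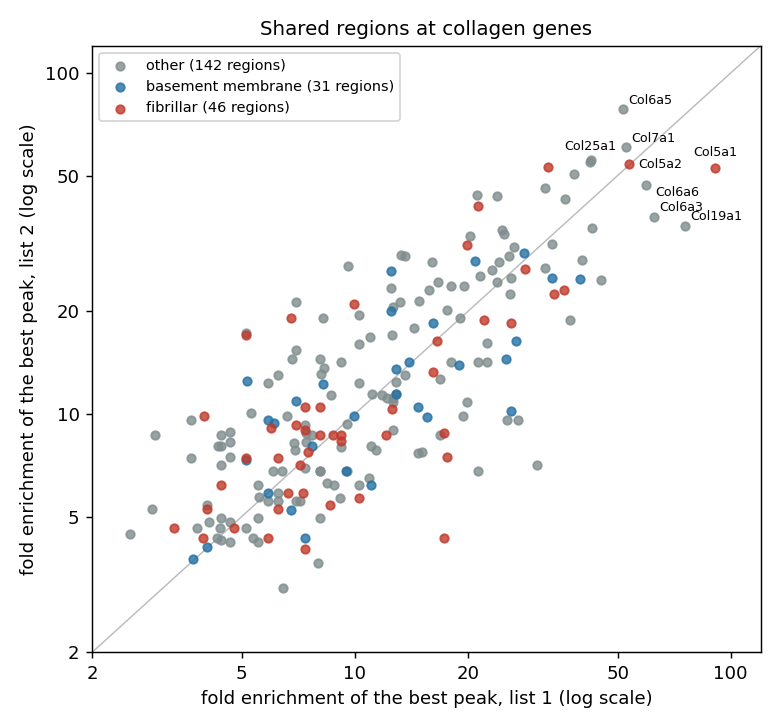
Fold enrichment of the best list 1 peak (x axis, log scale) against that of the best list 2 peak (y axis, log scale) in each of the 219 distinct shared regions at collagen genes, coloured by class, with the line of equal values. Most regions lie below 20-fold in both lists, and the labelled points are the strongest by place, from Col5a1 at 90.7-fold in list 1 to Col6a5 at 78.1-fold in list 2.

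Regions at collagen genes were not stronger than elsewhere. Their median fold was 10.3 in each list, against 10.8 in list 1 and 12.05 in list 2 over all autosomal shared regions, and their median width was 716 bp against 755 bp. At fibrillar genes the median fold was 8.34 in list 1 and 8.73 in list 2. It was 12.5 and 10.9 at basement membrane genes, and 10.6 and 11.2 at other genes. Folds ran from 2.52 to 90.7 in list 1 and from 3.08 to 78.1 in list 2, as the plot of fold by list shows. The log folds of the lists had an r of 0.780 across these regions, and 0.787 across all autosomal shared regions. Of the 219 regions 15 (6.85%) were among the strongest 10% on the autosomes, against 10.4% of the regions within 5 kb of any protein-coding gene. Such a region lay at 11 collagen genes, where 19.1% of all genes had one and the nearest genes in length would give 14.8. By class this was 3 fibrillar genes (3.42 expected), no basement membrane gene (2.39) and 8 others (8.995). Of the list 1 peaks at collagen genes 62.9% lay in a shared region, against 67.9% of all autosomal list 1 peaks. For list 2 the shares were 53.1% and 57.7%.

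**Figure D4:**
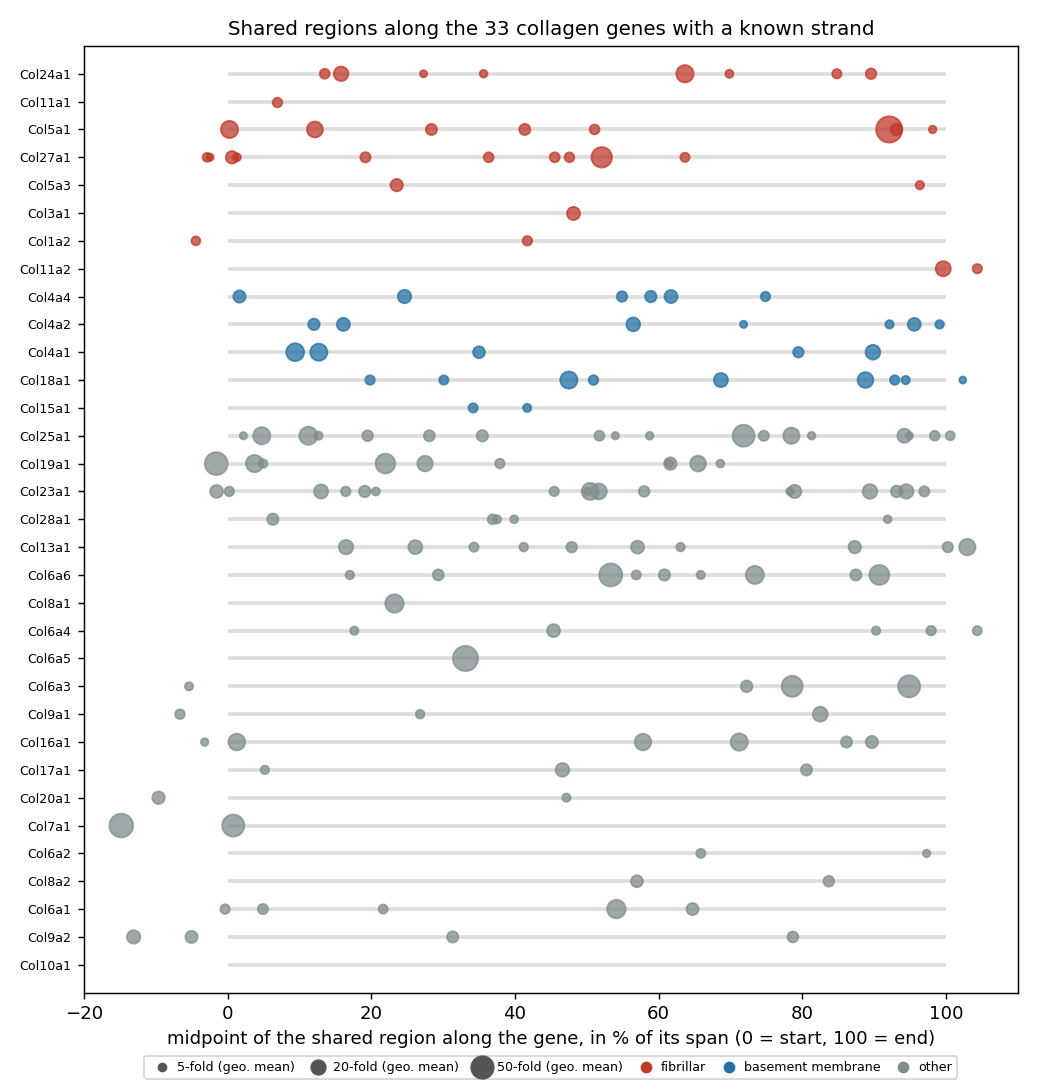
Midpoint of each shared region along the 33 collagen genes with a known strand, in percent of the gene span from its start (0) to its end (100), with the flanks beyond, coloured by class, and with circle size set by the geometric mean of the fold in both lists. Regions lie along the whole of the genes, and the largest circle is the Col5a1 region at 92.1% of the span.

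The regions were spread along the genes, as the plot of positions shows. With each span cut into 3 equal parts, the regions whose midpoint lay in the span of the 33 genes with a strand split into 49 (32.0%) in the first part, 53 (34.6%) in the middle and 51 (33.3%) in the last. In 11481 other genes of the same range of length the shares were 33.5%, 32.1% and 34.4%. A further 13 midpoints lay in the upstream flank and 6 in the downstream flank. Of all regions at these 33 genes that is 7.56% and 3.49%, against 9.59% and 10.4% in the other genes. Those other genes share the range of length but were not matched gene by gene, and the difference was not tested.

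The window of 5 kb decided a few regions. Just inside it were the Col19a1 region at 4528 bp and a Col9a1 region at 4667 bp, of 7.35-fold and 9.27-fold. Just outside were a region 5100 bp from Col6a4 with 12.9-fold and 14.8-fold, one 5128 bp from Col6a1 at chr10:76731172-76732518 with 36.6-fold and 40.5-fold, and one 5355 bp from Col1a1 with 13.96-fold and 23.2-fold. The strongest region between 5 and 20 kb from a collagen gene, chr9:79728317-79729570, lay 7176 bp from Col12a1 with 74.3-fold and 61.5-fold (place 646), and is not counted above.

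Next, 4 lists of genes that make, process, bind or break down collagens, or build basement membranes with them, were read in the same way. These lists were also chosen with earlier results of these data known. In the totals a region within 5 kb of more than 1 listed gene was counted for each of them. The best region of Fkbp10, for example, was also that of P3h4. Of 20 genes for procollagen synthesis and folding, 19 had a shared region (15.7 expected from the nearest genes in length; 72.2% of all genes), with 47 regions and a ratio of 1.09. The strongest were at Creb3l1, a transcription factor for collagen secretion (59.1-fold and 38.3-fold), at Plod2, a lysyl hydroxylase (39.7-fold and 25.02-fold), and at P4ha1, a subunit of prolyl hydroxylase (33.03-fold and 27.8-fold). Plod3, another lysyl hydroxylase, had no peak in either list.

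Of 16 genes for procollagen cleavage and cross-linking, 15 had a shared region (13.5 expected), with 72 regions and a ratio of 1.29 by nearest length but 0.989 by length class. The strongest regions by place were at Bmp1, Adamts2 and Tll1, which encode proteases that trim the ends of procollagen. Bmp1, the C-proteinase, had 8 regions against 2.68 expected, the best at chr14:70507314-70509883 with 68.2-fold and 70.1-fold (place 370). Adamts2, an N-proteinase, had 15 against 8.31, the best with 70.5-fold and 61.5-fold (place 956). Tll1 had 7 against 8.12, the best with 37.8-fold and 36.6-fold. Among the other Adamts and Tll genes listed, Tll2 had 13 against 5.67, Adamts14 7 against 3.42 and Adamts3 4 against 8.64. Lum, a proteoglycan that binds fibrils, had no shared region.

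Among 14 collagen receptor and breakdown genes, 12 had a shared region (11.5 expected), with 32 regions and a ratio of 0.825. The strongest were at the receptor genes Itga11 (30.6-fold and 46.7-fold) and Ddr1 (24.6-fold and 45.7-fold) and at the gelatinase Mmp2 (29.7-fold and 26.6-fold). Itga10 and Mmp8 had none. The low ratio did not hold across the list. The largest shortfalls, picked after the counts were seen, were at Itga1 (1 region against 6.25 expected) and Ddr2 (1 against 6.06). Itga11, Mmp2, Mmp14, Itgb1, Mrc2, Ctsk and Mmp13 each held more regions than expected.

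All 16 partners of collagen in basement membranes, mainly laminin and nidogen genes, had a shared region (14.8 expected), with 105 regions against 77.5 expected and a ratio of 1.36. The strongest lay at laminin genes: Lama5 (86.7-fold and 61.5-fold, place 533), Lama2, the laminin chain of muscle fibres (53.1-fold and 54.6-fold), and Lama4 (38.3-fold and 45.4-fold). Lama2 alone held 22 regions against 17.8 expected. The basement membrane collagens themselves were at 0.968 by the same measure.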

How the data were processed

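DNA captured with odd or even probes against LncMyoD, and input DNA, were sequenced in 2 replicates (6 samples, grouped by title) after tagmentation, which has sequence preferences of its own. The deposited files are 2 peak lists. Per the submitters' processing notes, the build was mm10 and the tools included MACS2 2.1.1, Bowtie2 2.3.2 and Picard 2.9.2, with neither order nor parameters. The libraries behind each list, and its threshold, could not be learned from the labels or files. The fold of a peak is the ratio deposited by the authors, at its summit over the caller's background. The q-value of each peak was deposited by the authors as a −log10 value, with the lowest −log10 q at 1.35 in list 1 and 1.32 in list 2. The deposited score repeats −log10 q on another scale and was not used further. Depth is unknown, so no interval or floor is given.

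Python 3.11.15, pandas 2.3.3, numpy 2.4.6, scipy 1.17.1 and matplotlib 3.10.9 were used. Gene spans and promoters came from RefSeq tables of GRCm38.p6. Peaks were joined into shared regions at 1 bp of overlap, counted within 5 kb of each span, and set against the mean of 20 length classes or, as an alternative, of the genes nearest in length, members left out of both. The counting was tested on simulated regions. Other windows, overlaps, thresholds and class definitions were tried. No p-value was computed.

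Every member is named with its count. Folds are given for the 4 members of each class with the strongest region, the 5 longest members, those without a region or with a promoter overlap, Col1a1, Col1a2, Col3a1, Col5a1, Col5a2, Col6a1 to Col6a3 and the type IV pairs, and for the 3 strongest genes of each other list. Col2a1, Col8a1, Col11a1, Col26a1, the regions at the edge of the window and the nearby Col12a1 region were chosen after their values were seen. The members and lists were chosen with earlier results of these data known. Genes on X, Y and unplaced sequence were left out of the counts.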

Additional observations from a re-analysis of the deposited data

How the results depend on the processing

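The count of 41 collagen genes with a shared region stayed within 1.5 times under 9 of 10 alternatives. It fell to 22 when each list was limited to its 30000 strongest peaks. The share of all genes with a region under that limit was not computed, so the fall is not read as a trait of collagen genes. The number of regions expected from genes of the same length class fell as well, from 239.2 to 48.8. Either list alone gave 41 to 42. The ratio of observed to expected regions is given next, each time in the order all 42 genes, fibrillar, basement membrane and other; it was 0.920, 0.795, 0.928 and 0.967 by 20 length classes. The lists differed by so little (SD of 0.0036 to 0.0143) that nearly every alternative moved it by more. Against the genes nearest in length, it was 1.04, 0.978, 0.968 and 1.08, and with 10 classes, it was 0.853, 0.743, 0.598 and 1.00, in which the longest class is wider. With the class limited to the same chromosome, it was 0.968, 0.868, 0.921 and 1.02. In the span alone, it was 0.903, 0.736, 0.945 and 0.958; within 1 kb, it was 0.902, 0.760, 0.930 and 0.950; within 20 kb, it was 0.968, 0.806, 0.887 and 1.05. With a reciprocal overlap of 50%, it was 0.932, 0.876, 0.943 and 0.951; with summits within 200 bp, it was 0.942, 0.897, 0.979 and 0.952. For −log10 q of at least 5, it was 0.905, 0.760, 0.959 and 0.949; for 10-fold or more, it was 0.847, 0.500, 1.03 and 0.939; for the 30000 strongest peaks, it was 0.840, 0.675, 0.578 and 0.964. Under these last 2, few fibrillar and basement membrane regions were left (13 and 16 at 10-fold, 8 and 4 among the strongest). Single lists by 20 classes gave 0.956 to 0.965 for all genes, 0.817 to 0.837 for fibrillar, 1.00 to 1.01 for basement membrane and 1.00 to 1.01 for other genes. Type IV alone as basement membrane gave 0.868, and 0.973 for the others. Without types XXIV and XXVII the fibrillar ratio was 0.737. Added after the data were seen: by nearest genes in list 1, it was 1.09, 1.01, 1.05 and 1.12; in list 2, it was 1.09, 1.03, 1.06 and 1.12; without Col11a1 the fibrillar ratio was 1.02 by class and 1.16 by nearest genes. With all members and shared regions, the 4 length matches left the fibrillar and basement membrane ratios below 1, whereas those of the other genes and of all 42 lay on either side of 1. No paired analysis was possible because each list pools the libraries of a replicate and gives no value per group. Without read counts, weak regions cannot be weighed by depth.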

Other observations

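The collagens of type IV have a further pair of genes on the X chromosome, which was left out of the counts above. Col4a5 and Col4a6 encode the chains alpha5 and alpha6 of basement membrane collagen and lie head to head. Col4a6, of 309 kb, had 4 shared regions within 5 kb, with 10 peaks in list 1 and 9 in list 2, the best at chrX:141398584-141399579 with 24.2-fold and 19.1-fold enrichment. Col4a5, of 214 kb, had 2, with 4 peaks in each list, the best at chrX:141521547-141522001 with 14.3-fold and 6.79-fold. The sex of the cells is not given in the labels, and no comparison with autosomal genes of like length was made for this pair.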
